A study of Mus musculus with 16 samples.

Results

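The gained positions are 16921 autosomal CpG positions at which a labelled cytosine was read in all 4 libraries of days 4 and 8 of a change in mouse embryonic stem cell culture, and in none of the 4 libraries of days 0 and 2. They were chosen by that listing alone, out of 11564302 autosomal positions listed in any of the 11 knock-in libraries. A position is listed in a library when it has at least 1 read. Because the listing on the 4 days chose the members, their values on those days are given as a description, with no test.

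The study followed where the DNA methyltransferase DNMT1 acts in E14TG2a, a feeder-independent mouse embryonic stem cell line, using 16 sequencing libraries in 7 groups. The day 0, 2, 4 and 8 groups had 2 libraries each, all from cells with 1 Dnmt1 allele carrying the N1580A knock-in. Day 0 was the naive state, in serum, leukemia inhibitory factor and the kinase inhibitors CHIR99021 and PD0325901, and the later days followed withdrawal of the inhibitors. A further 3 libraries of the same genotype (Het), 3 of wild-type Dnmt1 (WT) and 2 labelled wild-type control (WTcontrol) lie outside the rule. Ado-6-azide (1 mM) was electroporated into cells of every group, and their DNA was collected 3 h afterwards. The labels do not give the culture state of the Het libraries, how WTcontrol differs from WT, or the number of knock-in clones. Whether replicates came from separate cultures is not stated either, and p-values cover only the spread between these libraries. The material is genomic DNA with no expression values, so the embryonic stem cell identity could not be checked against marker genes.

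DNMT1 is the maintenance methyltransferase: after DNA replication it copies CpG methylation from the parental strand onto the new strand, drawing the methyl group from S-adenosylmethionine. The knock-in enlarges the cofactor pocket so that the enzyme can use the azide-bearing analog, and the azide is then tethered to an oligonucleotide from which sequencing starts. Naive embryonic stem cells grown with the inhibitors are known for low genome-wide methylation, which rises once the inhibitors are withdrawn. CpG-rich promoters generally stay unmethylated in both states. A library is made from many cells, so fewer labelled cells and less label per cell cannot be told apart.

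The sequence around a gained position could be read where it fell within the promoter window that RefSeq gives for GRCm38.p6, the same assembly as mm10, from 250 bases before to 50 bases after an annotated start. All 45605 listed positions in 31363 autosomal windows lay on the C of a CpG (100%), counted on the plus strand. The windows with the most reads in the Het libraries, which the rule did not use, are shown to give the local CpG content, for gained CpGs upstream of the start. Each run is on the strand of the gene, 5′ to 3′, with the gained CpG in capitals.
Gm52539: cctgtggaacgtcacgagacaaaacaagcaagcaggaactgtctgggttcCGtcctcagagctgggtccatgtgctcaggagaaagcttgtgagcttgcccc
Gm40277: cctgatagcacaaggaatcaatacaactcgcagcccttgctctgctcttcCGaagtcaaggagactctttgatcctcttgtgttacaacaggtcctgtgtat
Ccl22: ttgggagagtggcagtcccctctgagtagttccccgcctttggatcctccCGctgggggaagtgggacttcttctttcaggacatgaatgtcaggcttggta
Gm30262: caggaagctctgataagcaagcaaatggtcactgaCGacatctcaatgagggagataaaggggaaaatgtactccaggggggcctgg
2010001M07Rik: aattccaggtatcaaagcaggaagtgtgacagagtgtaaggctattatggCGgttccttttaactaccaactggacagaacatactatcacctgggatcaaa
Ccl22 encodes a chemokine, and the other 4 genes are annotated as lncRNAs. The gained CpG of Gm52539 is at position 173371224 within chr2:173371174-173371275, 162 bases upstream of the start, and its whole window holds 6 CpGs. That of Gm40277 is at 32090354 within chr5:32090304-32090405, 66 bases upstream, in a window of 4 CpGs. That of Ccl22 is at 94745562 within chr8:94745512-94745613, 122 bases upstream, in a window of 8 CpGs. That of Gm30262 is at 111599510 within chr10:111599475-111599561, 215 bases upstream, in a window of 4 CpGs. That of 2010001M07Rik is at 60334033 within chr9:60333983-60334084, 76 bases upstream, in a window of 2 CpGs. All 5 windows are CpG-poor, and in each run the gained CpG has at most 2 CpG neighbours.

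For contrast, the 100 bases upstream of 2 named start sites with no listed position in any Het or day library are shown with every CpG in capitals. Tet2 encodes an enzyme that oxidises methylated cytosine, and Ppp1r9a is an imprinted gene for an actin-binding scaffold.
Tet2: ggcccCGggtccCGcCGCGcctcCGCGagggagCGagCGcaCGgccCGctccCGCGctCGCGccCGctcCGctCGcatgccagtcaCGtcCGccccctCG
Ppp1r9a: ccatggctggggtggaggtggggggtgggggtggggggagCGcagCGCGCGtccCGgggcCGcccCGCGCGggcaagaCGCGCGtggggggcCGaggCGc
The Tet2 window holds 57 CpGs, 20 of them in the printed bases at chr3:133544391-133544490. The Ppp1r9a window holds 48 CpGs, 14 of them at chr6:4903211-4903310.

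At the gained CpGs printed above, reads were few and uneven between libraries. The Gm52539 position had 12 and 2 reads in the day 4 libraries, 3 and 2 on day 8, and 11, 0 and 29 in the 3 Het libraries. The Ccl22 position had 9 and 5 reads on day 4, 2 and 2 on day 8, and 16, 0 and 17 in Het. The Gm40277 position had 16 and 8, then 2 and 3, and was listed in only 1 Het library, with 36 reads. At Gm30262 the reads were 6 and 10 on day 4, 5 and 1 on day 8, and 15, 0 and 15 in Het. At 2010001M07Rik they were 8 and 1, then 1 and 4, with 0, 21 and 8 in Het. Each of the 5 positions was thus missing from at least 1 Het library, although the Het libraries were the deepest.

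The libraries differed in size. Autosomal reads were 4134592 and 4796615 on day 0, between 8787079 and 12399291 on days 2 to 8, and between 18817232 and 24774977 in Het. Autosomal positions listed were 383292 and 399896 on day 0, 1245488 and 1286026 on day 2, 2056936 and 2531636 on day 4, and 3011952 and 2556018 on day 8. The 5 wild-type libraries had 1609 to 22608 autosomal reads. Reads carry no molecular identifiers, so those at a position can be PCR copies, and intervals cover counting error only.

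Positions listed in all 4 of the day 4 and day 8 libraries numbered 26338, and the members are the 64.2% of them in no day 0 or day 2 library. The other 9417, which were also listed on day 0 or day 2, are called the retained positions and serve as a second reference. The opposite pattern, all 4 early libraries and no late one, held 138 of 825 positions. The size of the set followed library size: with every day library thinned to 4134592 reads, 5952 positions met the rule and 136 its opposite. Thinned instead to 383292 positions each, 13 met the rule and 42 its opposite, so the excess over the opposite pattern was present at equal reads and not at equal numbers of positions. The word gained therefore describes the listing and not a shown increase at each CpG.

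Members lay close to the limit of detection. In day 4 they had 6.03 and 4.95 reads on average in replicates 1 and 2, and in day 8 they had 4.47 and 4.27. Other listed positions in the same libraries had 5.74, 4.65, 4.11 and 4.05. Summed over the 4 libraries, the lowest member had 4 reads, the median member 18 and the highest 159, and the median of the retained positions was 19. In 8528 members (50.4%) at least 1 of the 4 libraries had a single read, and 8393 had at least 2 reads in each. Just outside the rule were 217660 positions that missed 1 of the 4 late libraries and 7315 that had all 4 and a single early library.

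Absence from days 0 and 2 was the usual state of a listed position, and it became less usual as positions recurred. Of positions listed in exactly 1 late library, 80.4% were in no early library, against 75.4% for 2, 70.7% for 3 and 64.2% for all 4. The Het libraries, which the rule did not use, gave a like series: 79.6% of positions listed in 1 Het library were in no early library, 74.5% of those in 2 and 68.9% of those in all 3. Of the 26338 positions in all 4 late libraries, 12.1% were listed on day 0 and 28.9% on day 2. Among them the share absent early was 69.8% with no Het library, 65.7% with 1, 59.0% with 2 and 31.1% with 3. The plot of absence against recurrence gives both series.

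**Figure D1:**
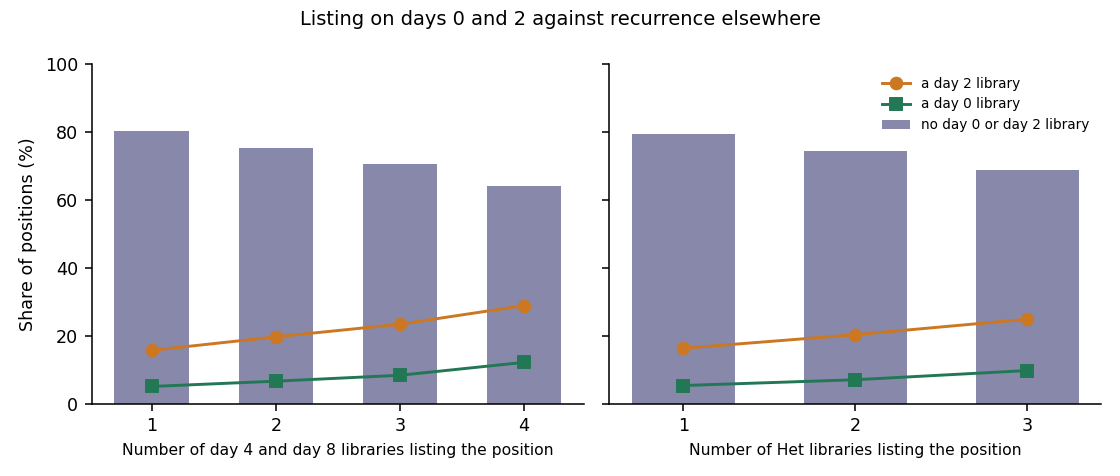
Share of autosomal positions (%, bars) in no day 0 or day 2 library, by the number of day 4 and day 8 libraries (left) or Het libraries (right) that list them; lines give the shares listed in a day 0 and a day 2 library. The bars fall from 80.4% to 64.2% on the left and from 79.6% to 68.9% on the right.

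To see whether the pattern carried over to libraries that had not chosen the positions, the rule was applied to the 4 libraries of 1 replicate and the result read in the other replicate. Replicate 1 alone gave 391284 gained positions and 25302 with the opposite pattern, called lost, and replicate 2 gave 404471 and 27000. In the held-out day 0 library, 3.64% of the gained and 5.97% of the lost positions chosen in replicate 1 were listed, and 3.47% and 5.89% of those chosen in replicate 2. The ratio of gained to lost was 0.600 ± 0.0155 on day 0 and 0.890 ± 0.0210 on day 2 (SD, n = 2 held-out libraries each). It was 0.995 ± 0.0170 on day 4 and 0.998 ± 0.0219 on day 8. Positions gained in 1 replicate were thus listed less often than lost ones in the other replicate's day 0 library, but no more often in its day 4 and day 8 libraries. Days 4 and 8 over days 0 and 2 gave 1.36 and 1.37 for the 2 choices, each with p = 0.333 by a two-sided exact permutation test of 2 against 2 libraries, the smallest p this design allows. In the Het libraries the same ratio of gained to lost lay between 0.932 and 0.990.

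**Figure D2:**
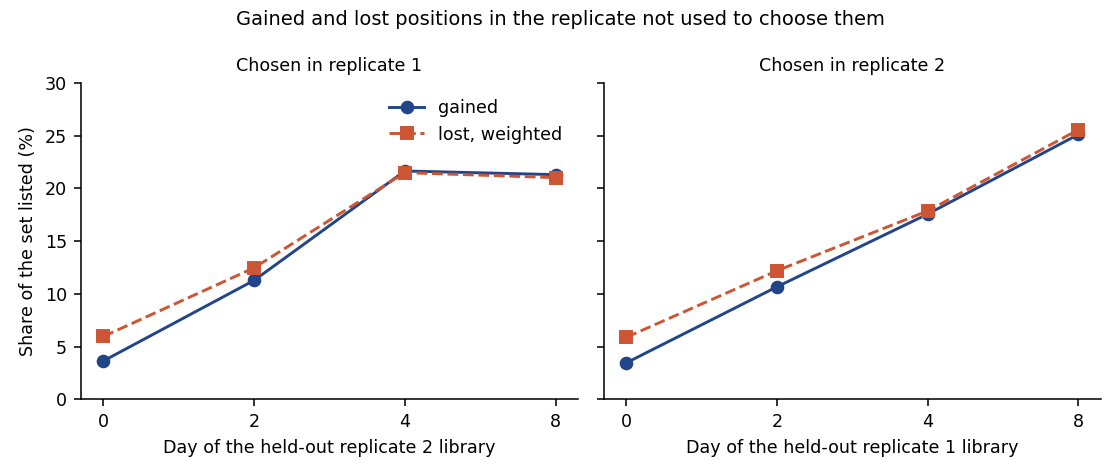
Share (%) of gained and of lost positions listed in the replicate that did not choose them, by day, with lost positions weighted to the gained ones by their number of Het libraries. Gained and lost differ on day 0 (3.64% against 5.97%, left) and nearly coincide on day 8 (21.3% against 21%).

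The Het libraries listed gained positions less often than retained ones and somewhat more often than other positions. Het replicate 1 listed 17% of the members and 26.5% of the retained positions. Het replicate 2 listed 34.8% and 44.7%, and Het replicate 3 listed 27.6% and 36.8%. Of all positions, the 3 libraries listed 13.9%, 29.1% and 22.4%. All positions include 2472042 in no day library, which are counted only because a Het library listed them. That raises these 3 shares, whereas the members were chosen without Het. Positions in 1 late library and no early one were in 0.466 Het libraries on average, against 0.795 for the members. Members were below the retained positions in 3 of 3 libraries, at a geometric mean ratio of 0.721, with p = 0.25 by an exact sign-flip permutation test, the smallest that 3 libraries allow. By number of Het libraries, 6946 members (41.0%) were in none, 6949 (41.1%) in 1, 2580 (15.2%) in 2 and 446 (2.64%) in all 3. The background of all other listed positions, those listed only in Het included, had 45.4%, 44.6%, 9.28% and 0.773%. In what follows this background is weighted to the members by that number and called the matched background. The retained positions are weighted likewise where members are compared with them by Het reads, gene features, neighbours, gene lists or chromosomes.

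Where a Het library listed a member, it had more reads there on average than at matched background positions. The means were 12.7 reads against 11.8 in replicate 1, 8.57 against 7.43 in replicate 2 and 9.39 against 8.36 in replicate 3. The geometric mean ratio was 1.12, higher in 3 of 3 libraries, with an exact sign-flip permutation p = 0.25. Against retained positions, in contrast, the same ratio was 0.754, 0.758 and 0.772. Members thus ranked between the matched background and the retained positions in Het depth.

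Wild-type cells lack the enlarged pocket, so their libraries show the background of the method. Members made up 0.178% ± 0.00236 of the positions listed in Het (SD, n = 3) and 0.185% ± 0.109 of those in wild type (SD, n = 5). The difference had p = 1 by a two-sided exact permutation test of 3 against 5 libraries. The wild-type counts were 8 of 3829 positions, 0 of 945, 12 of 5555, 19 of 9027 and 10 of 3436, and the 0 allows a share of up to 0.317%. Leaving out that library, WT replicate 2, the Het share was lower by 0.0536 percentage points, with an exact permutation p = 0.0286, the smallest that 3 against 4 allow. Without the repeat on chromosome 17 described below, the shares were 0.175% in Het and 0.119% in wild type (exact permutation p = 0.304). The retained positions made up 0.138% ± 0.0153 of positions in Het and 0.682% ± 0.0753 in wild type (exact permutation p = 0.0179, the smallest possible), a comparison added after the values were seen. Without the chromosome 17 repeat these shares were 0.130% and 0.410%, at the same p. In all, 48 members were listed in any wild-type library.

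The largest group of gained positions lay in a ribosomal RNA gene repeat. The 10 kb bin of chromosome 17 that starts at 39840000 held 68 members between 39843052 and 39848654, against 5 in the bin with the next most, and 14255 of the 15500 bins with a member (92.0%) held 1. RefSeq places in it Rn18s-rs5, an 18S ribosomal RNA-related sequence at chr17:39846354-39848202, with 7 of the members, and the lncRNA AY036118 at chr17:39848112-39898385, with 9. Ribosomal DNA is present in many copies per genome, which an assembly can hold as a single copy, so reads of many copies can meet at these coordinates. The bin also held 192 retained positions, and 587 of its positions were listed in any Het or day library. Of its members, 60 were in all 3 Het libraries, out of 446 such members genome-wide, and 17 were in a wild-type library.

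Reads in this bin were counted over all its positions, members or not. Per 1000000 autosomal reads, a scale called RPM, they came to 200 and 138 on day 0, 96.9 and 156 on day 2, 270 and 307 on day 4, and 829 and 653 on day 8. The values of days 4 and 8 lay above all 4 of days 0 and 2, and day 8 lay above day 4. The members are part of these reads and were chosen on those days, so no test is given. The Het libraries had 657, 764 and 858 RPM, near the day 8 values. The WT libraries had 7124, 2486 and 5178, from 67, 4 and 101 reads, and WTcontrol had 6679 and 7693, from 151 and 62 reads. The number of the bin's positions listed was likewise higher on days 4 and 8 than on days 0 and 2, and higher on day 8 than on day 4: 155 and 72 on day 0, 132 and 180 on day 2, 335 and 411 on day 4, and 532 and 506 on day 8. As a share, per 1000000 positions listed, these came to 404 and 180 on day 0, 106 and 140 on day 2, 163 and 162 on day 4, and 177 and 198 on day 8. On that scale day 8 was above day 4 and day 4 above day 2, but day 0 was not the lowest, and its replicate 1 was the highest of the 8 libraries.

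**Figure D3:**
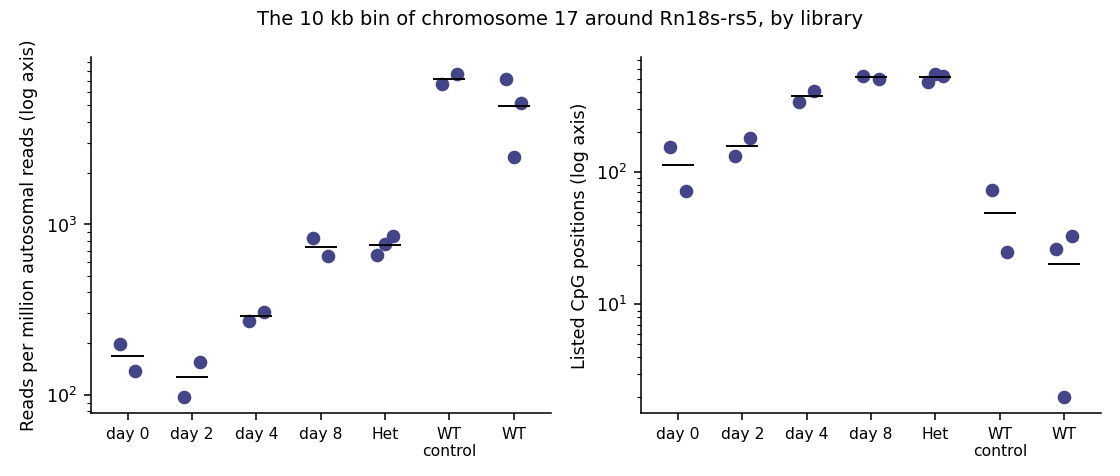
The chromosome 17 bin around Rn18s-rs5 in each of the 16 libraries (points; bars are group means): reads per 1000000 autosomal reads, RPM (left) and number of CpG positions listed (right), both on log axes. RPM values are lowest on days 0 and 2 (96.9 to 200), 653 and 829 on day 8, and highest in the wild-type libraries (2486 to 7693).

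The 3 members with the most Het reads all lay in this bin. At position 39843350 the day 4 libraries had 2 and 24 reads, day 8 had 47 and 25, and Het had 57, 147 and 60. At 39845252 the reads were 1 and 5, then 22 and 27, with 96, 94 and 67 in Het. At 39845523 they were 6 and 14, then 41 and 28, with 50, 81 and 118 in Het. All 3 were higher on day 8 than on day 4 in each library, and each was also listed in 1 wild-type library. Outside the bin, and chosen after the values were seen, the top member was position 76752931 of chromosome 5, within the body of Cracd, a gene for a regulator of actin capping. It had 7 and 25 reads on day 4, 8 and 9 on day 8, and 75, 2 and 64 in Het.

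Over all autosomes, the chromosome 17 bin included, members lay more often in and around genes than the matched background. Protein-coding gene bodies held 58.2% of the members and 50.7% of the matched background, a ratio of 1.15. The rule applied within replicates 1 and 2 gave 1.09 and 1.08 against its own background. Sites more than 100 kb from an annotated start held 16.2% of the members against 23.5%, a ratio of 0.690, with 0.816 and 0.837 in the 2 replicates. From 1 to 5 kb from a start the ratio was 1.16 and from 5 to 20 kb it was 1.17. Within 1 kb of a start, where promoters lie, there was no excess: 2.59% of members and 2.61% of the matched background (0.995). There the 2 replicates gave 0.963 and 0.939, and members lay at 0.892 of the retained positions. Within 1 kb of either annotated gene end, members held 7.12% against 6.45% (1.10). The annotation used here has no exons, so exonic, intronic and UTR positions were not told apart.

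**Figure D4:**
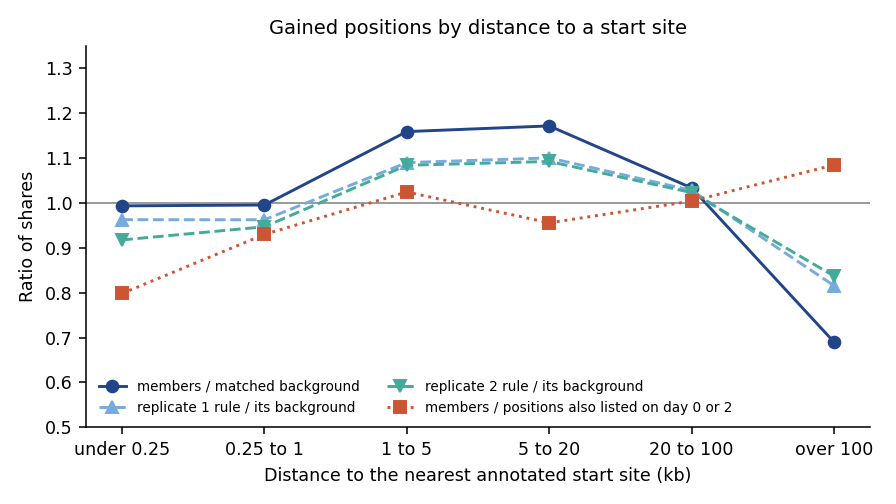
Ratio of shares of positions by distance to the nearest annotated start site (kb): members over the matched background (solid), the rule within replicates 1 and 2 over their backgrounds (dashed), and members over retained positions (dotted). Members exceed the matched background between 1 and 20 kb (1.16 and 1.17), fall to 0.690 beyond 100 kb, and lie at 0.798 of the retained positions within 0.25 kb.

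The excess in genes was greatest in short genes. Members in protein-coding genes under 20 kb made up 7.81% against 5.32% of the matched background (ratio 1.47, and 1.22 and 1.19 within the 2 replicates). In genes of 20 to 100 kb the ratio was 1.28 and in genes of 100 to 500 kb 1.08. In genes above 500 kb it was 0.674, with 4.10% of members against 6.08%, and 0.831 and 0.854 within replicates.

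These features were shared with recurrent positions in general. The share of the retained positions in protein-coding bodies, weighted to the members by number of Het libraries, was 58.6%. That of the members was 58.2%, a ratio of 0.992. Beyond 100 kb from a start the weighted retained share was 14.9%. Near gene ends the retained positions exceeded the members, at 8.12% against 7.12%. Positions listed in all 3 Het libraries, whatever their day pattern, were in protein-coding bodies in 56.3% of cases and beyond 100 kb from a start in 17.5%. Among positions absent on days 0 and 2 the share in protein-coding bodies was 49.0% with no late library, 49.8% with 1, 52.9% with 2, 55.9% with 3 and 58.2% with 4. By number of Het libraries it was 49.1%, 50.8%, 54.1% and 56.3% from 0 to 3. Against the matched background the members stood apart, but against positions with the same late listing and an early one they did not in gene bodies.

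Members lay where listed positions were dense. Within 500 bases of a member there were on average 6.02 other positions listed in a Het library, against 4.42 for the matched background, a ratio of 1.36. Without the chromosome 17 bin the values were 5.62 and 4.40 (1.28). The weighted retained positions had 6.70. Although no member was itself listed early, 85.4% had a day 0 or day 2 position within 500 bases, against 76.7% of the matched background, and 43.6% had a day 0 position there, against 35.9%. Within 5 kb the share with an early position was 99.9% for the members and 99.7% for the matched background, so that distance does not tell the sets apart.

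Members were mostly single. The median distance between neighbouring members was 55525 bases, and 4.88% had another member within 1 kb, against 2.58% of the matched background, a ratio of 1.89 (1.76 without the chromosome 17 bin). Within 100 bases the shares were 1.47% and 0.380% (ratio 3.87, and 2.96 without the bin). Of the retained positions, weighted likewise, 5.99% had a member within 1 kb.

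Within promoter windows, members were found where CpGs were sparse. Of 349578 CpGs in 29716 autosomal windows, 69 were members. Windows with 1 to 6 CpGs held 44 members, or 1.13 per 1000 CpGs, and windows with 7 to 12 held 23, or 0.621 per 1000. Windows with 13 to 18 CpGs held 1 member, those with 19 to 30 held 0, and those with 31 or more held 1 (0.00884 per 1000). Listing in any Het or day library fell in the same order, from 605 per 1000 CpGs in the poorest windows through 386, 92.8 and 23.2 to 6.04 in the richest. The Tet2 and Ppp1r9a windows printed above are of the richest class, and those with the gained CpGs hold 2 to 8 CpGs.

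Single genes held few members. In all, 5461 of 20665 protein-coding genes (26.4%) had at least 1. The planned minimum of 20 matched background positions per gene was reached by no gene, so a minimum of 5 was set after the data were seen, which left 113 genes with a median length of 740 kb. Of these, 17 (15.0%) had at least 1.5 times the matched count and 38 (33.6%) had at most 1/1.5 of it. The day listing chose the members, so these shares are a description. Matched counts in these genes were at least 5 and at most 14.0. At the smallest counts, a few positions more or fewer pass 1.5-fold. How large the 2 shares would be from counting error alone was not tested. At a minimum of 10 matched positions, 1 of 7 genes was beyond 1.5-fold, on the lower side. Over the 113 genes the median ratio was 0.812, with a range of 0 to 2.33. Of the 113 genes, 80 lay on the same side of 1 in both replicates' versions of the rule.

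Among the genes with the highest ratios, Trio, a guanine nucleotide exchange factor for small GTPases at chr15:27730649-28025848, had 12 members against 5.15 matched, a ratio of 2.33 with a 95% exact Poisson interval of 1.20 to 4.07, and 1.37 and 1.25 within the 2 replicates. Gse1, a coiled-coil protein found in chromatin complexes (chr8:120228501-120581383), had 14 against 6.33 (2.21), with 1.62 and 1.22 within replicates. Magi1, a junction scaffold (chr6:93675453-94283929), had 13 against 5.95. Nav2, a neuron navigator protein (chr7:48959063-49610090), had 17 against 8.21, and 1.33 within each replicate. The others were the receptor phosphatase gene Ptprg (13 against 6.57), Cdh23 (11 against 5.70), the microfibril-associated Thsd4 (11 against 5.71) and the homeobox gene Zfhx3 (18 against 9.89). The within-replicate ratios of all 8 lay between 1.09 and 1.62; genes were named only where both lay on the same side of 1.

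Among the genes with the lowest ratios, Macrod2, which encodes an ADP-ribosylhydrolase at chr2:140395303-142392966, had 0 members against 8.85 matched. Robo1, an axon guidance receptor (chr16:72027518-73047491), had 0 against 6.65, and its relative Robo2 had 1 against 6.18. Pcdh15 (chr10:73096277-74649831) had 0 against 6.50. Its product joins that of Cdh23, among the highest genes, in the tip links of hair cells. Adamtsl1, for an extracellular matrix protein, had 0 against 5.39. The reelin adaptor gene Dab1 had 1 against 8.62 and the sialyltransferase gene St6galnac3 1 against 6.49. Within replicates these 7 genes lay between 0.531 and 0.993, so positions gained in a single replicate were present in all of them: Macrod2 had 139 and 162, at ratios of 0.651 and 0.735.

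**Figure D5:**
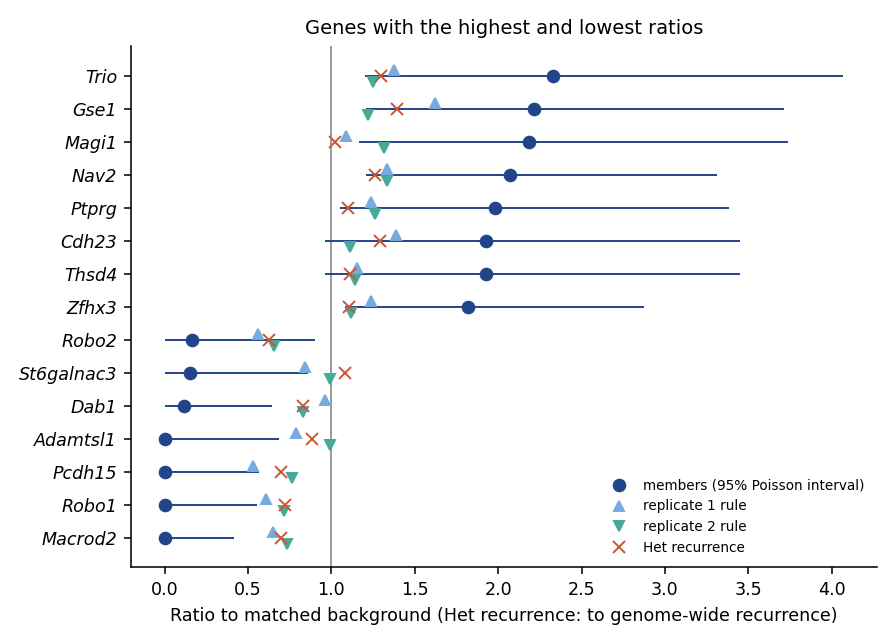
Members over the matched background in the 8 highest and 7 of the lowest of 113 protein-coding genes (circles with 95% exact Poisson intervals), with the ratios of the rule within each replicate (triangles) and of Het recurrence (crosses). The genes were chosen with both replicate ratios on the same side of 1; Het recurrence, which did not choose them, lies between 0.624 (Robo2) and 1.39 (Gse1).

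The order of genes was shared with recurrence in Het. Het recurrence, meaning positions in at least 2 Het libraries over those in 1, scaled to the genome, was 1.30 for Trio, 1.39 for Gse1, 0.70 for Macrod2 and 0.720 for Robo1, and 1.08 for St6galnac3 among the lowest genes. Across the 113 genes the member ratio had a Pearson correlation of 0.696 and a Spearman correlation of 0.717 with Het recurrence. The correlation was 0.842 between the replicates' versions of the rule, 0.612 with listed positions per kb and 0.412 with the ratio for retained positions. Genes are not independent replicates, and the points share CpG density and the matched background.

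By gene list, long cell adhesion and synapse genes stood lowest among the lists with many members. Their 31 genes found held 99 members against 173 matched (0.572, and 0.712 and 0.738 within replicates), and 23 of them had at least 1. The median within-replicate ratio of these genes was 0.655, with 1 of 31 above 1, against a median of 1.07 over 2543 protein-coding genes with at least 20 matched positions, 1553 of them above 1. Their Het recurrence was 0.779. The teneurin genes Tenm3 and Tenm2, which encode synaptic adhesion proteins, had 13 members against 12.6 and 8 against 10.2. Against retained positions, also in all 4 late libraries, the list's ratio was 1.32, so its direction depends on the reference. These genes held 0.799% and 0.803% of the positions listed on day 0, 0.939% and 0.929% on day 2, 0.931% and 0.934% on day 4, and 0.935% and 0.988% on day 8.

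Genes of pluripotency and of DNA methylation held few members, in counts somewhat above the matched ones. Of 19 naive pluripotency genes 3 held 9 members, against 6.76 matched, and the list lay at 0.660 against retained positions. Nr5a2, a nuclear receptor gene, had 5 against 1.55, with an exact Poisson interval of the ratio from 1.04 to 7.51, and 1.42 and 1.17 within replicates. Esrrb, another nuclear receptor gene, had 3 against 2.08 (interval 0.297 to 4.21). Its replicates lay on opposite sides of 1, at 0.927 and 1.41. Of 17 formative and primed genes 3 held 9 against 5.38, including Lef1, a Wnt-responsive transcription factor gene, with 3 against 1.78 (interval 0.347 to 4.91). The 18 genes of DNA methylation and demethylation held 15 against 8.57 (1.75, and 1.13 and 1.23 within replicates), in 5 genes. Dnmt3a, a de novo methyltransferase gene at chr12:3801559-3914443, had 4 of them, against 1.40 matched (interval 0.780 to 7.33); it is in the formative list too, so its members count in both. Tet3, whose product oxidises methylated cytosine, had 0 against 1.45 (interval up to 2.54), with ratios of 1.25 and 1.37 within replicates. For comparison, all protein-coding genes held 9843 against 8585, and within replicates the naive list lay at 0.994 and 1.12.

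Among the other lists, 45 imprinted genes held 32 members against 30.6 matched, 8 of them in Trappc9, a gene for a vesicle trafficking subunit, against 5.75, and 3 in Ppp1r9a against 2.85. The 22 germline genes with methylated promoters held 9 against 6.09. Of these, the piRNA pathway genes Mov10l1 and Tdrd1 had 0 against only 0.798 and 0.707. Within replicates Mov10l1 lay at 1.64 and 1.75, and Tdrd1 at 0.852 and 1.13. The 30 Hox and Polycomb target genes held 4 against 7.31 (0.548, and 1.01 and 0.816 within replicates). Tbx5 had 0 against 1.33 and Pax7 had 1 against 1.25, both developmental transcription factor genes. Neural markers held 26 against 25.7 (1.01, and 1.00 and 0.898 within replicates). Rbfox1 had 7 against 7.78 and Rbfox3 had 10 against 6.50, both splicing factor genes. Endoderm markers held 13 against 13.6 (0.956, and 1.09 and 1.12 within replicates). The collagen gene Col4a2 had 3 against 2.20, and the laminin gene Lama1 had 1 against 1.82. Mesoderm markers held 6 against 7.56 (0.794, and 1.02 and 1.15 within replicates). The transcription factor gene Runx1 had 2 against 3.31, and the endothelial adhesion gene Pecam1 had 2 against 0.904. The 26 housekeeping genes held 3 against 1.5, with 1 in the lactate dehydrogenase gene Ldha against 0.175. Polr2a, the gene for the largest RNA polymerase II subunit, had 0 against only 0.290, and 2.56 and 1.98 within replicates. Intervals at these counts were wide: that of the Rbfox3 ratio, 1.54, ran from 0.738 to 2.83.

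By chromosome, members over the matched background were highest on chromosome 17, at 1.26, which was 1.18 without the bin above and 1.06 in each replicate's version of the rule. Chromosome 11 followed, at 1.22 (1.12 and 1.13 within replicates), and chromosome 4 at 1.13. Chromosome 3 was lowest, at 0.784 (0.893 and 0.910 within replicates), then chromosome 13 at 0.853 and chromosome 1 at 0.857. Protein-coding bodies held 56% of the listed positions of chromosome 11 and 41.8% of those of chromosome 3. Over retained positions, the same chromosomes 11 and 3 were at 0.907 and 1.09.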

How the data were processed

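Genomic DNA was sequenced in 16 libraries. Per the submitters' processing notes, the authors used cutadapt 4.4, BWA 0.7.17-r1188 and SAMtools 1.12 with build mm10. Not given in the sources used here are parameters, duplicate handling and the rule tying a read to a CpG. Each library has 1 deposited table of positions, whose coverage column, per the file headers, holds counts: the whole number of reads at a position, as the authors left it, with no scaling. Unlisted positions were taken as 0.

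Groups came from sample titles. Positions were joined over libraries, and members, retained and background positions were found by listing. Genes, start sites and promoter sequences came from RefSeq for GRCm38.p6, with 20665 autosomal protein-coding genes. A position in overlapping genes counted for each. Values were computed with scipy 1.17.1, pandas 2.3.3 and numpy 2.4.6 under Python 3.11.15, and the scripts for gene ratios were tested on simulated data. Libraries were compared by two-sided exact permutation or sign-flip tests. Intervals of gene ratios are 95% exact Poisson intervals. Het and WT replicate numbers were checked for pairing and were not taken as pairs.

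The named genes are the 8 highest and 8 lowest ratios with both replicate versions on the same side of 1, and up to 2 per list with the largest matched background. Of the 8 lowest, 1 gene is not reported here. The planned minimum of 20 matched positions was replaced by 5. Single positions are the 3 with the most Het reads, and sequences are those of up to 5 members upstream of a start. Members and the 11 gene lists were chosen with earlier results of these data known. Alternatives covered read minimums, depth, backgrounds, distances and each library left out.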

Additional observations from a re-analysis of the deposited data

How the results depend on the processing

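The number of positions meeting the rule was the most dependent value. It was 8393 with at least 2 reads in each late library, 5952 with libraries thinned to equal reads, 13 with libraries thinned to equal numbers of positions, and between 17773 and 85464 with each day library left out in turn.

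Directions depended on the background. Against retained positions the ratios fell below 1: 0.992 for gene bodies, 0.877 for gene ends, 0.898 for Het neighbours within 500 bases and 0.815 for another member within 1 kb. With start sites in place of gene ends the ratio was 0.995. The cause was not tested. Other backgrounds kept the direction. Without weighting, the 4 ratios were 1.15, 1.11, 1.39 and 1.95, and with positions of a day 4 or day 8 library they were 1.12, 1.09, 1.31 and 1.75. For gene ends, neighbours and clustering in turn, the ratios were 1.12, 1.39 and 2.28 with at least 2 reads, 1.09, 1.27 and 1.71 with no early position within 10 bases, 1.16, 1.43 and 2.09 with absence from day 0 only, and 1.10, 1.28 and 1.76 without the chromosome 17 bin. Leaving out positions listed in wild type gave 1.34 and 1.86 for neighbours and clustering. Gene ends gave 1.01 within 250 bases and 1.18 within 5 kb, neighbours 1.45 within 100 bases and 1.27 within 5 kb, and clustering 3.87 within 100 bases and 1.40 within 10 kb. With each library left out, gene bodies ranged from 1.11 to 1.15, gene ends from 1.07 to 1.13, neighbours from 1.22 to 1.40 and clustering from 1.36 to 2.02. The lowest clustering values came from leaving out a day 4 or day 8 library.

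Genes beyond 1.5-fold either way numbered 1 of 7 at a minimum of 10 matched positions and 55 of 113 at 5. At the planned minimum of 20 the count was 0 because no gene reached it. Against retained positions 5 genes reached 20, and all 5 were beyond 1.5-fold, on the lower side. The minimum of 40 left no gene. Het listing stayed between 0.687 and 0.794 and Het reads between 1.07 and 1.13 with each library left out.

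The member share, Het minus wild type, had no stable sign. It was 0.0363 percentage points for 3 Het against 3 WT (exact permutation p = 1), 0.0497 by reads and 0.0560 without the chromosome 17 bin, and -0.0536 to 0.0191 with 1 library left out, the lowest without WT replicate 2. The replicate block, pairing Het and WT by number, gave 0.0363 (p = 1, exact sign flip). Same-numbered Het and WT libraries had correlations of -0.171, 0.378 and 0.0202 over 19 chromosomes. They were not taken as pairs, but the 3 WT libraries listed only 945 to 5555 positions, so a pairing could go unseen. The wild-type libraries, with 945 to 9027 positions, limit this comparison, and single reads limit the rule itself.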

Other observations

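The X chromosome lies outside the rule. Of its positions, 64 were listed in all 4 day 4 and day 8 libraries and 40 of these (62.5%) were in no day 0 or day 2 library, against 64.2% on the autosomes. Positions meeting the rule came to 14.4 per 100000 listed positions on the X chromosome, taken over the Het and day libraries, and 146 per 100000 on the autosomes. These rates make no allowance for the number of X chromosome copies per cell, and the cause of the difference was not tested.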
